A study of Mus musculus with 8 samples.

Results

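The serotonin receptor genes were Htr1a, Htr1b, Htr1d, Htr2a, Htr2b, Htr2c, Htr3a, Htr4, Htr6 and Htr7, taken by symbol from the platform's probe annotation. All 10 were measured, through 14 probes, among 31334 genes tested, of which 19087 had a symbol. They were compared in nucleus accumbens RNA of male mice in a conditioned place preference procedure, given either cocaine (15 mg per kg) or saline on its days 2, 3 and 4. Conditioned place preference pairs an injection with a place, so saline mice went through the same training without drug. The sources used here give neither strain nor age. The labels name 1 cocaine animal and 1 saline animal for each 2-colour array, although the design text leaves unclear whether nuclei were pooled. Cocaine RNA carried the red dye Cy5 on 2 arrays and the green dye Cy3 on the other 2, giving n = 4 hybridisations, each scanned on an Axon and an Agilent scanner.

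Serotonin reaches the accumbens in axons of raphe neurons, and cocaine blocks its reuptake along with that of dopamine and noradrenaline. Receptors of the 5-HT1 group couple to Gi proteins, which lower cyclic AMP, and those of the 5-HT2 group couple to Gq, which drives phospholipase C. The products of Htr4, Htr6 and Htr7 couple to Gs and raise cyclic AMP, while the 5-HT3 receptor built from the Htr3a product is a cation channel. Medium spiny neurons, which form the output of the striatum, carry several of these receptors, and others are best known from cortex, interneurons or the choroid plexus.

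Promoter windows from RefSeq (GRCm38.p6) run from 250 bases before to 50 after a start. They are printed for Htr1a and Htr1d, which have the lowest and highest ratios below among the 8 receptors searched, and for Htr7. No window of Htr3a or Htr4 was searched. Htr1d has more than 1 start, and the upstream one is printed. The windows were searched on both strands for the letters TGACG (the short form of the cyclic AMP response element), TGACGTCA (the full element, which contains the short form) and TGACTCA (the AP-1 site), since the factors that bind them are well known from striatal responses to cocaine. Htr7 has the only match among the 10 windows searched, a short form on the reverse strand at position -87 from the start, shown in capitals. Among all 32851 windows given, 20.8% hold TGACG, 1.79% hold TGACGTCA and 5.20% hold TGACTCA. A match is letters only, and so is its absence.
Htr1a, chr13:105443443-105443742, plus strand: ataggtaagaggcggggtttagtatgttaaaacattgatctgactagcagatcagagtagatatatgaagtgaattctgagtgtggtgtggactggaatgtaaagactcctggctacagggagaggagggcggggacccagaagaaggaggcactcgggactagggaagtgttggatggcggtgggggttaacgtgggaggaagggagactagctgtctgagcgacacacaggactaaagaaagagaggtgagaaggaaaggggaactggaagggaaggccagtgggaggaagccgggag
Htr1d, chr4:136423274-136423573, plus strand: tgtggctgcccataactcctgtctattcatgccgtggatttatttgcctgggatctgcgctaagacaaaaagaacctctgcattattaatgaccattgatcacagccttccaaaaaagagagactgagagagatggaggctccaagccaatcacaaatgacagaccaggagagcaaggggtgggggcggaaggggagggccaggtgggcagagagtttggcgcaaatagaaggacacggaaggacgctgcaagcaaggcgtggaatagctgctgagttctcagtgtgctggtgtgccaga
Htr7, chr19:36057311-36057610, minus strand: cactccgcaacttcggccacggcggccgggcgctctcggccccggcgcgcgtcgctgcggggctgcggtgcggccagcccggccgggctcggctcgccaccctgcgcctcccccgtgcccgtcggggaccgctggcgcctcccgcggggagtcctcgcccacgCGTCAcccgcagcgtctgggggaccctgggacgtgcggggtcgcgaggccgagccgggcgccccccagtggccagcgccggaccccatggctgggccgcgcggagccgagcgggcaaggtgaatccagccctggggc

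No serotonin receptor passed the threshold between cocaine and saline mice (0 of 10 at limma's adjusted p below 0.05), against 8 genes or 0.0255% of all genes tested (0.00319% higher and 0.0223% lower). At an unadjusted p below 0.05 there was 1 receptor, Htr4, lower with cocaine, where 6.04% of all genes had such a p (2.8% higher and 3.24% lower). Coefficients ran from -0.45 for Htr4 to 0.26 for Htr1d on the log2 scale, with standard errors from 0.17 to 0.20, and the adjusted p from limma ran from 0.784 to 0.994. Of the 10 receptors 6 lay below 0, with a median of -0.027, beside 43.4% of all genes below 0 and a median of 0.032 over all genes. Zero lay inside the 95% interval of 9 receptors. The outer ends of the intervals corresponded to changes between 1.30-fold (Htr6) and 1.80-fold (Htr4) in size. In bulk tissue, a lower ratio from fewer cells of a type cannot be told apart from less RNA per cell.

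The order of the coefficients from lowest to highest was Htr4, Htr1a, Htr3a, Htr2a, Htr1b, Htr6, Htr7, Htr2b, Htr2c and Htr1d. All 10 of the 95% intervals shared the stretch from -0.094 to -0.061, so those of neighbours and of the ends overlapped. Differences between receptors were not tested. Ratios are log2 of cocaine over saline after each scan was centred on its median. That direction was assumed and is unstated in the labels, and with the opposite reading every sign turns. The deposited values are ratios without intensities, so no receptor's level can be given and the dissected region cannot be checked by the level of its markers.

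**Figure D1:**
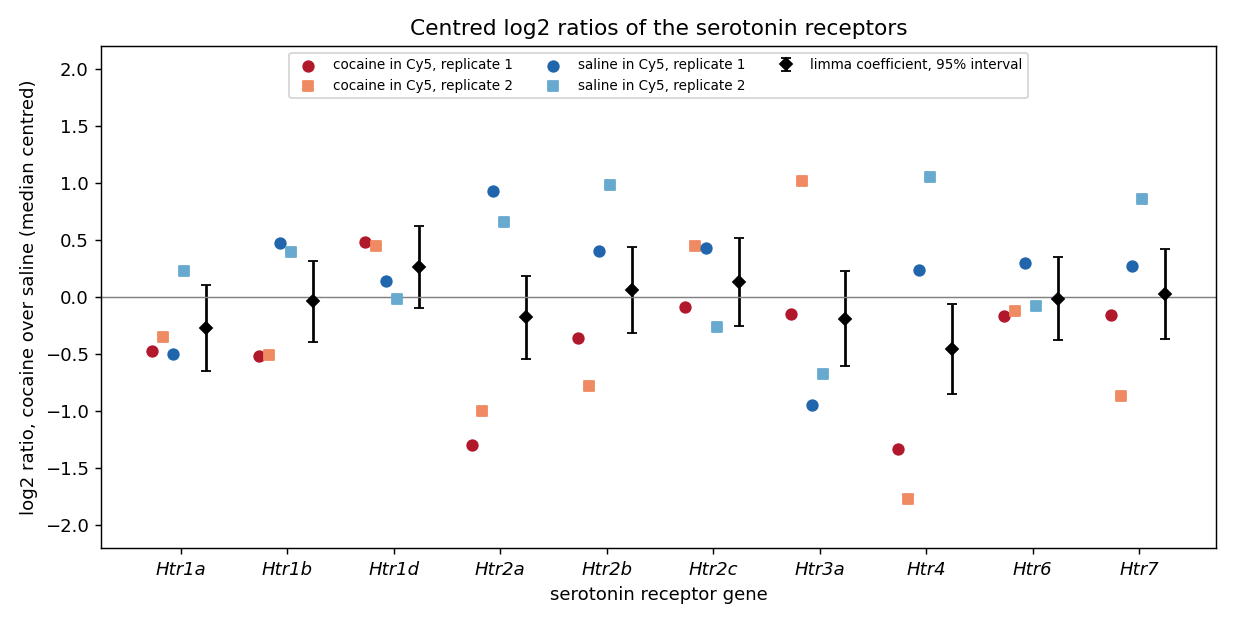
Centred log2 ratios of cocaine over saline (vertical axis) for each receptor gene (horizontal axis) in the 4 hybridisations, coloured by dye orientation, with the limma coefficient and its 95% interval as a black diamond and bar. For Htr1b, Htr2a, Htr2b, Htr4 and Htr7 the cocaine in Cy5 points lie below 0 and the saline in Cy5 points above it, and only the Htr4 interval leaves 0 out.

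The dye coefficient was larger in size than the cocaine coefficient for 7 of the 10 receptors, and smaller for Htr1a, Htr1d and Htr2c. By limma's adjusted p, 6 of the 10 receptors had a dye effect, 5 towards Cy3 and Htr3a towards Cy5, where 77.9% of all genes had one (43.4% towards Cy3 and 34.5% towards Cy5). Its median size was 0.505 on the log2 scale for the receptors, against 0.153 for their cocaine coefficients. Over all genes the median sizes were 0.749 for the dye and 0.133 for cocaine. The dye coefficient was -1.10 for Htr4, -0.97 for Htr2a and 0.62 for Htr3a, and 0.046 for Htr2c, whose probes went opposite ways. For scale, its median was 1.26 over 71 ribosomal protein genes and -0.80 over 896 olfactory receptor genes. For 5 receptors both hybridisations of one orientation had the opposite sign to both of the other, and 0 receptors had the same sign in all 4, as did 1.84% of all genes. Shares of all genes were not counted for signs opposite by orientation or for a dye coefficient larger than the cocaine one.

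Because the dye effect differed in size between arrays, ratios were also taken after a loess fit along a dye profile, a mean over both orientations in which treatment cancels. These dye-profile ratios likewise called 0 of 10 receptors (limma adjusted p from 0.67 to 0.982) and 0% of all genes. At an unadjusted p below 0.05 there were 2 receptors, Htr4 and Htr1d, where 7.25% of all genes had such a p. The receptor median was 0.0062 there with 5 of 10 below 0, beside -0.00097 over all genes with 15744 of 31334 below 0. Of the receptors 0 had the same sign in 4 of 4 hybridisations, as 19.1% of all genes did.

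**Figure D2:**
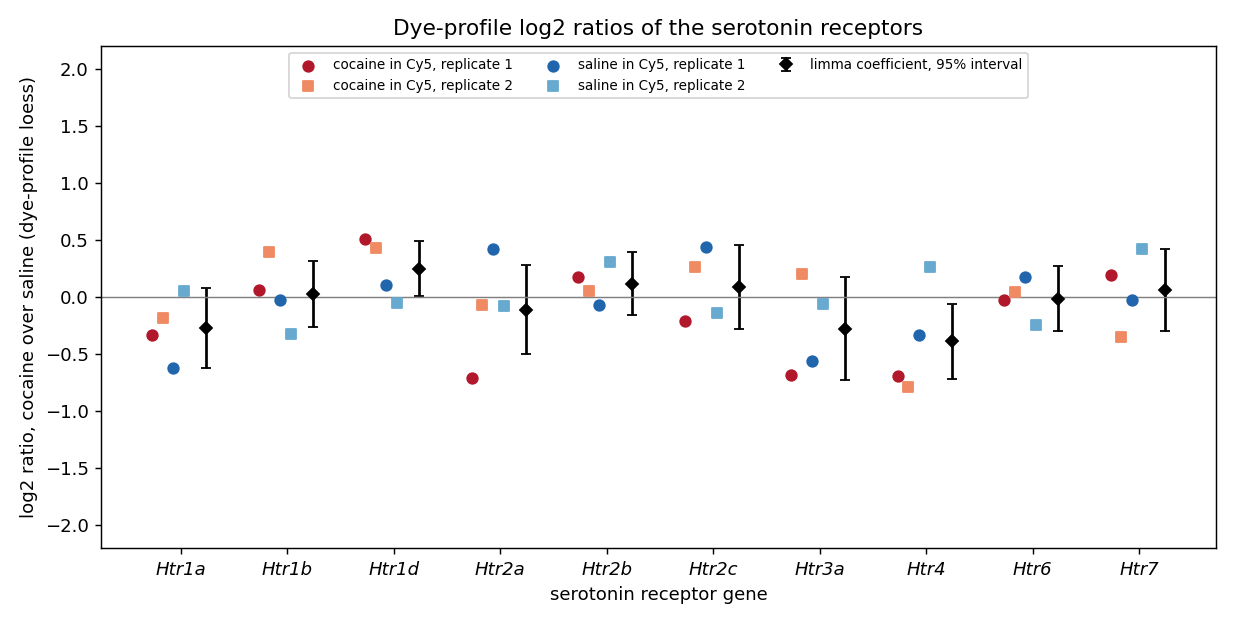
Dye-profile log2 ratios of cocaine over saline (vertical axis) for each receptor gene (horizontal axis) in the 4 hybridisations, with the limma coefficient and its 95% interval as a black diamond and bar. The intervals of Htr4 and Htr1d leave 0 out before adjustment, and each receptor has at least 1 hybridisation on either side of 0.

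Among the Gi-coupled receptors, Htr1a encodes the 5-HT1A receptor, the autoreceptor on raphe cell bodies that is also found on cortical and hippocampal neurons. Its centred ratios were -0.47 and -0.35 with cocaine in Cy5 and -0.49 and 0.23 with saline in Cy5. Saline in Cy5 replicate 2 thus stood above 0 and the other 3 below. The coefficient was -0.27 ± 0.18 (95% interval -0.65 to 0.11, limma adjusted p = 0.866), and -0.27 ± 0.14 in dye-profile values. Leaving out 1 saline in Cy5 array moved it to -0.092 (replicate 1) or -0.45 (replicate 2).

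Htr1b encodes the 5-HT1B receptor, which sits on axon terminals of serotonin neurons and of medium spiny neurons and curbs transmitter release. Its centred ratios were -0.51 and -0.51 with cocaine in Cy5 and 0.48 and 0.39 with saline in Cy5. The orientations mirrored each other, and the coefficient was -0.038 ± 0.170 (interval -0.39 to 0.32, limma adjusted p = 0.981). The dye-profile ratios also split by orientation, at 0.060 and 0.40 against -0.022 and -0.33, with a coefficient of 0.027.

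Htr1d encodes the close relative 5-HT1D, a target of the triptans. Ratios after centring were 0.48 and 0.44 with cocaine in Cy5 and 0.14 and -0.017 with saline in Cy5. It was the receptor with 3 hybridisations above 0, and the fourth was close to 0. The coefficient was 0.26 ± 0.17 (interval -0.094 to 0.62, limma adjusted p = 0.866), and 0.25 ± 0.10 in dye-profile values (limma adjusted p = 0.67). The scanners differed here, with a coefficient of 0.43 in Axon scans and 0.095 in Agilent scans.

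Among the Gq-coupled receptors, Htr2a encodes 5-HT2A, the main target of hallucinogens, which is dense on pyramidal neurons of the cortex. Its centred ratios were -1.30 and -0.996 with cocaine in Cy5 and 0.93 and 0.66 with saline in Cy5. The sign followed the dye in all 4, and the coefficient was -0.18 ± 0.17 (interval -0.54 to 0.19, limma adjusted p = 0.915). In dye-profile values it was -0.11 ± 0.15. Markers of cortical projection neurons had 10 of 11 members below 0 and a median of -0.35, beside 43.4% of all genes below 0. Of these markers 3 passed limma's adjusted p (Tbr1, Nrn1 and Neurod6), where 0.0223% of all genes were lower at that threshold. The list was chosen with earlier results of these data known. In dye-profile values 0 of the 11 passed, with a median of -0.30. Their part in the Htr2a value was not tested.

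Htr2b encodes 5-HT2B, known from heart valves and blood vessels. Averaged over its 2 probes, the centred ratios were -0.36 and -0.78 with cocaine in Cy5 and 0.40 and 0.98 with saline in Cy5. The sign again followed the dye, and the coefficient was 0.061 ± 0.180 (interval -0.32 to 0.44, limma adjusted p = 0.972). The probes gave -0.017 and 0.14. Endothelial and mural markers had 5 of 10 members below 0 and a median of 0.0082 after centring, with Kdr at -0.30 ± 0.17 and Esam at 0.18 ± 0.17. In dye-profile values 7 lay below 0, with a median of -0.050 and 0 past limma's adjusted p. At an unadjusted limma p below 0.05, 2 of these 10 were lower, beside 1189 of all 31334 genes.

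Htr2c encodes 5-HT2C, a receptor whose RNA is edited by adenosine deaminases and which is abundant in the choroid plexus and present on medium spiny neurons. Averaged over its 3 probes, the centred ratios were -0.088 and 0.44 with cocaine in Cy5 and 0.43 and -0.26 with saline in Cy5. Each orientation held 1 hybridisation on either side of 0. The coefficient was 0.13 ± 0.18 (interval -0.26 to 0.52, limma adjusted p = 0.938), and 0.090 ± 0.147 in dye-profile values. It was -0.0013 when cocaine in Cy5 replicate 2 was left out, and -0.041 or 0.30 when saline in Cy5 replicate 1 or 2 was.

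The 3 Htr2c probes did not share a dye response. Feature 32740 stood at 0.54 and 1.53 with cocaine in Cy5 and at -0.20 and -1.39 with saline in Cy5. Feature 35762 stood at -0.97 and -0.99 with cocaine in Cy5 and at 1.11 and 0.67 with saline in Cy5. Feature 41387 stood at 0.16 and 0.79 with cocaine in Cy5 and at 0.38 and -0.066 with saline in Cy5. The first rose towards Cy5, the second towards Cy3, and the third was between them. Their cocaine coefficients of 0.12, -0.045 and 0.32 lay closer together than their dye responses. Choroid plexus and ependymal markers had 4 of 10 members below 0 and a median of 0.040 (0.090 in dye-profile values). Kcne2 stood at 0.43 ± 0.18 and Clic6 at 0.37 ± 0.17 (limma adjusted p = 0.784 and 0.817). The Kcne2 coefficient was 0.81 in Axon scans and 0.052 in Agilent scans. The 4 members below 0 were Col8a1 (-0.33), Folr1 (-0.25), Foxj1 (-0.15) and Ttr (-0.11). The part of these markers in the Htr2c value was not tested.

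Htr3a encodes the 5-HT3A channel subunit, in forebrain a mark of one class of cortical interneurons. Its centred ratios were -0.15 and 1.01 with cocaine in Cy5 and -0.94 and -0.67 with saline in Cy5. Cocaine in Cy5 replicate 2 stood alone above 0. The coefficient was -0.19 ± 0.20 (interval -0.60 to 0.23, limma adjusted p = 0.917), and -0.28 ± 0.18 in dye-profile values. Leaving out 1 cocaine in Cy5 array moved it to 0.10 (replicate 1) or -0.48 (replicate 2). Genes listed as interneuron markers had 7 of 10 members below 0 and a median of -0.18 (-0.23 in dye-profile values). Cck stood at -1.13 ± 0.21 (limma adjusted p = 0.0617) and Pvalb at -0.74 ± 0.26 (0.718). Pvalb dye-profile ratios were -1.30 and -0.013 with cocaine in Cy5 and -1.97 and 0.019 with saline in Cy5, so replicate 1 held the low values. Vip (-0.30), Sst (-0.24), Calb2 (-0.23), Npy (-0.14) and Reln (-0.073) also lay below 0, while Chat (0.0093), Lhx6 (0.12) and Slc5a7 (0.25) lay above 0. Which cells the Cck RNA came from was not tested, nor was the part of these markers in the Htr3a value.

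Among the Gs-coupled receptors, Htr4 encodes 5-HT4, which is expressed by striatal projection neurons. Averaged over its 2 probes, the centred ratios were -1.33 and -1.77 with cocaine in Cy5 and 0.23 and 1.05 with saline in Cy5. The negative ratios with cocaine in Cy5 were larger in size than the positive ones with saline in Cy5, which left a coefficient of -0.45 ± 0.19 (interval -0.85 to -0.061, limma adjusted p = 0.784). On the linear scale this is a ratio of 0.730. Dye-profile ratios were -0.69 and -0.79 with cocaine in Cy5 and -0.33 and 0.27 with saline in Cy5, so 3 of 4 lay below 0, with a coefficient of -0.39 ± 0.13 (limma adjusted p = 0.67). Of all genes 2.01% had a lower centred coefficient.

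The low Htr4 value came mainly from 1 probe and 1 scanner. Feature 32901 had a coefficient of -0.76 ± 0.20 and feature 31324 one of -0.14 ± 0.20. In this fit by probe limma gave all 14 receptor probes the same error. It is a spread shared over probes and does not measure the scatter of feature 32901 itself. In Axon scans feature 32901 stood at -3.45 and -3.41 with cocaine in Cy5 and at -0.34 and 2.57 with saline in Cy5. Agilent scans of the same spots read -1.19, -1.44, 0.31 and 0.86 in that order. The sizes were larger on the Axon scanner in all 4 hybridisations, and the scanners had opposite signs in saline in Cy5 replicate 1. At gene level the Htr4 coefficient was -0.65 ± 0.27 in Axon scans and -0.25 ± 0.15 in Agilent scans (limma adjusted p = 0.968 and 0.805). Leaving out 1 saline in Cy5 array moved it to -0.25 (replicate 1) or -0.66 (replicate 2).

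**Figure D3:**
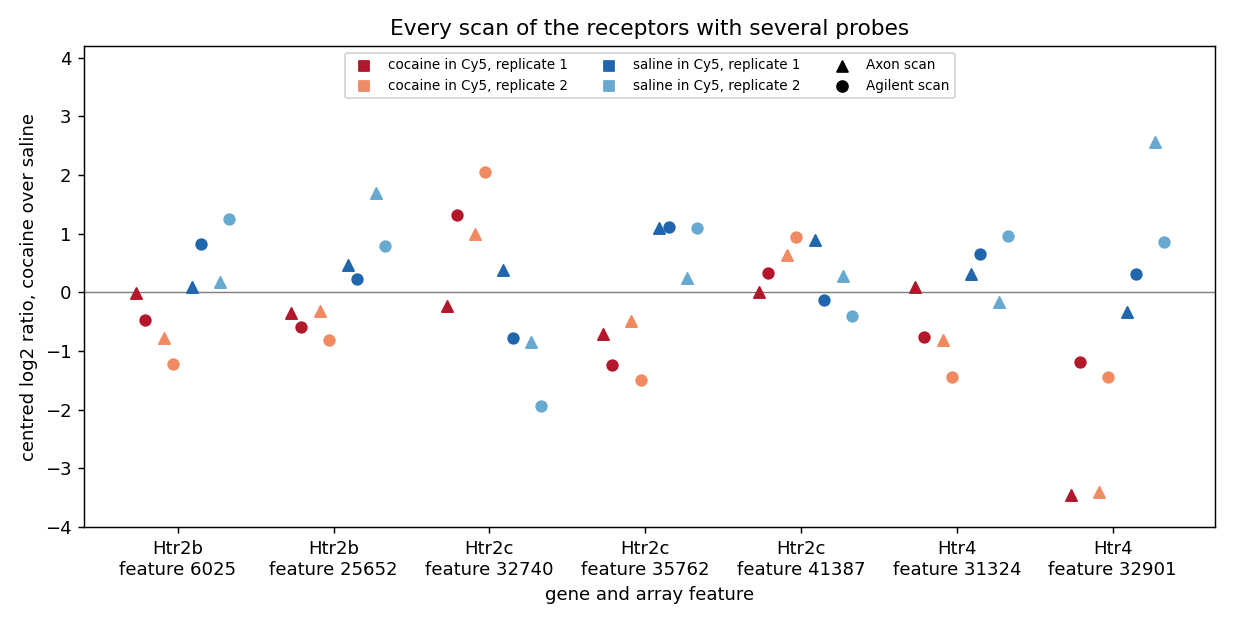
Centred log2 ratios of cocaine over saline (vertical axis) in every scan of the 7 probes of Htr2b, Htr2c and Htr4 (horizontal axis), with triangles for Axon and circles for Agilent scans and colours for hybridisations. Feature 32901 of Htr4 holds the most extreme values, at -3.45, -3.41 and 2.57 in Axon scans, and the Htr2c features 32740 and 35762 have opposite dye responses.

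Medium spiny neuron markers stood on the other side of 0 from Htr4, with 10 of 10 measured members above 0 and a median of 0.38. Over all genes 17742 of 31334 lay above 0. Of these markers 0 passed limma's adjusted p and 5 had an unadjusted p below 0.05, where 2.8% of all genes were higher at such a p. The median dye coefficient of the markers was 1.44. Ppp1r1b, which encodes DARPP-32, stood at 0.69 ± 0.19 and Adcy5, the main striatal adenylyl cyclase and also counted among the enzymes below, at 0.61 ± 0.20 (limma adjusted p = 0.473 and 0.652). Their dye-profile median was 0.18. Whether these values bear on Htr4 was not tested. By root mean square distance over the 4 dye-profile ratios, the named genes most like Htr4 among 19086 were Gm32358 at 0.083, Prss28 at 0.092 and Lrrc19 at 0.13, where the median distance was 0.586.

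Htr6 encodes 5-HT6, a receptor concentrated in the striatum. The 4 centred ratios were -0.16 and -0.12 with cocaine in Cy5 and 0.30 and -0.078 with saline in Cy5. All 4 were small, and the coefficient of -0.015 ± 0.173 was the one nearest 0 (interval -0.38 to 0.35, limma adjusted p = 0.994). It stayed between -0.11 and 0.079 under all 11 alternatives run.

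Htr7 encodes 5-HT7, known from thalamus, hypothalamus and the circadian clock. Ratios after centring were -0.16 and -0.87 with cocaine in Cy5 and 0.27 and 0.86 with saline in Cy5. The sign followed the dye, and the coefficient was 0.027 ± 0.186 (interval -0.36 to 0.42, limma adjusted p = 0.989). The scanners differed in sign, at 0.25 in Axon scans and -0.19 in Agilent scans. Such a difference in sign between scanners was also seen for Htr6, both values being near 0.

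The other serotonin receptor genes on the array behaved likewise, with 0 of 4 past limma's adjusted p and 0 at an unadjusted p below 0.05. Htr1f stood at 0.0073 ± 0.176, Htr3b at -0.12 ± 0.20, Htr5a at 0.024 ± 0.172 and Htr5b at 0.15 ± 0.19. Htr3b encodes the second subunit of the 5-HT3 channel, and its ratios of -0.77 and -1.10 with cocaine in Cy5 and 0.15 and 1.26 with saline in Cy5 leaned towards Cy3 (dye coefficient -0.82), where Htr3a leaned towards Cy5.

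Of the genes that make, move and break down serotonin, 7 of 8 listed were measured and 0 passed, also at an unadjusted p below 0.05. Tph2, the neuronal synthesis enzyme made in raphe cell bodies, stood at -0.12 ± 0.17 and its peripheral counterpart Tph1 at 0.0053 ± 0.172. Slc6a4, the serotonin transporter that cocaine blocks, stood at 0.12 ± 0.21, with centred ratios of -0.44 and -1.06 with cocaine in Cy5 and 0.35 and 1.62 with saline in Cy5. The decarboxylase Ddc stood at 0.082 ± 0.174 and the vesicular transporter Slc18a2 at -0.018 ± 0.174. Of the monoamine oxidases, Maoa stood at 0.15 ± 0.18 and Maob at -0.064 ± 0.180, and Maob was lower in 4 of 4 dye-profile ratios. The median of the 7 was 0.0053.

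Downstream of the receptors, 0 of 12 G protein subunit genes passed, with a median of 0.10 and 9 above 0 after centring, but a median of -0.029 and 7 below 0 in dye-profile values. Their median dye coefficient was 1.03. Gng7, the gamma subunit paired with the striatal stimulatory G protein, stood at 0.41 ± 0.18 (limma adjusted p = 0.793). It is also counted among the medium spiny neuron markers above. Gnaq, the subunit behind the 5-HT2 receptors, stood at 0.25 ± 0.18 (0.873). Of the enzymes they act on, 0 of 14 measured passed, with a median of 0.043 and 5 below 0 after centring, but -0.067 and 8 below 0 in dye-profile values. Adcy5 and the calcium-stimulated cyclase Adcy8 had the smallest p and lay on opposite sides of 0, at 0.61 ± 0.20 and -0.50 ± 0.17 (limma adjusted p = 0.652 and 0.704). Centred Adcy8 ratios were -0.82 and -0.81 with cocaine in Cy5 and -0.41 and 0.049 with saline in Cy5, so 3 of 4 lay below 0. Among 13 measured genes of receptor binding, trafficking and RNA editing 0 passed, with a median of 0.012 and 6 below 0 after centring, but -0.088 and 10 below 0 in dye-profile values. The editing enzyme Adar stood at 0.19 ± 0.18 and Anxa2, a partner of S100a10, the adaptor of 5-HT1B and 5-HT4, at -0.22 ± 0.17.

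**Figure D4:**
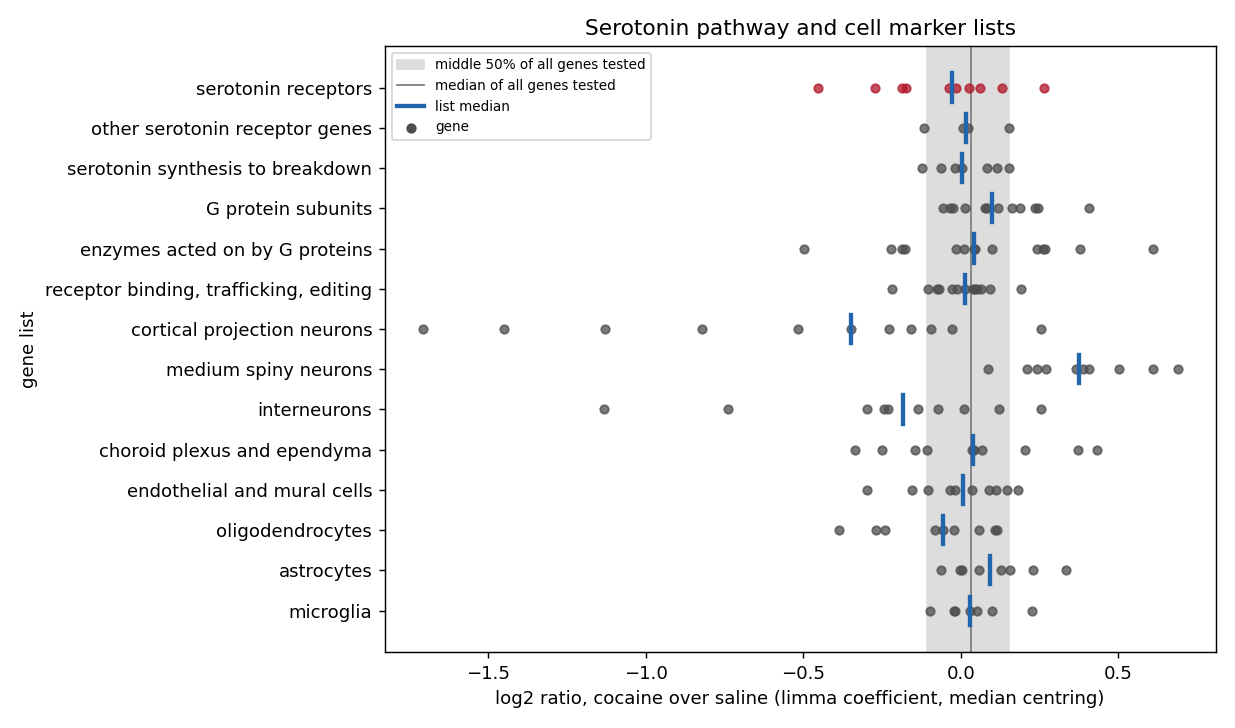
Limma coefficients of cocaine over saline on the log2 scale (horizontal axis) for the genes of each serotonin pathway or cell marker list (vertical axis), with list medians as blue bars and the middle 50% and median of all genes tested in grey. The receptor median of -0.027 lies inside the grey band, while the cortical projection neuron and interneuron medians of -0.35 and -0.18 lie below it and the medium spiny neuron median of 0.38 above it.

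Among markers of glia, oligodendrocyte genes had 6 of 9 members below 0 and a median of -0.056 after centring, and 7 below 0 and a median of -0.24 in dye-profile values, with Aspa at -0.39 ± 0.19 and Mog at -0.24 ± 0.17. Astrocyte genes had a median of 0.093 after centring and -0.012 in dye-profile values, with Aldh1l1 at 0.33 ± 0.18 and Aldoc at 0.23 ± 0.18. Microglia genes had a median of 0.030 after centring, but -0.076 with 6 of 7 below 0 in dye-profile values, with Trem2 at 0.23 ± 0.17 and Itgam at -0.097 ± 0.170. None of the members of these 3 lists passed limma's adjusted p under either scaling. At an unadjusted p below 0.05 there was none after centring and 1 in dye-profile values, Aspa at -0.53.

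Signs held under every alternative run for Htr1a, Htr1d, Htr2a and Htr4, and changed under at least 1 for the other 6 receptors. Some alternatives could not change a sign. With 2 arrays per orientation, leaving out the dye coefficient gives the same cocaine coefficient. The 7 receptors with 1 probe keep theirs when 1 probe per symbol is taken. Probes valued in all 8 scans also left every receptor coefficient as it was. Htr4 ranged from -0.76 to -0.25 over 11 alternatives. The -0.76, with the smallest limma adjusted p of 0.0719, came from taking 1 probe per symbol. That was the probe of median coefficient, or the lower of the middle 2, which for Htr4 is feature 32901 alone. With all 4 hybridisations and its probes averaged, the unadjusted limma p of Htr4 was 0.0287 with dye-profile loess and 0.0384 in Axon scans. It was 0.0247 with probes valued in all 8 scans, 0.0623 with scaling to one spread, 0.111 in Agilent scans and 0.427 without a dye coefficient. Htr1d ranged from 0.095 to 0.43 and Htr1a from -0.45 to -0.092. Under none of the 11 alternatives did a receptor pass limma's adjusted p of 0.05.

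**Figure D5:**
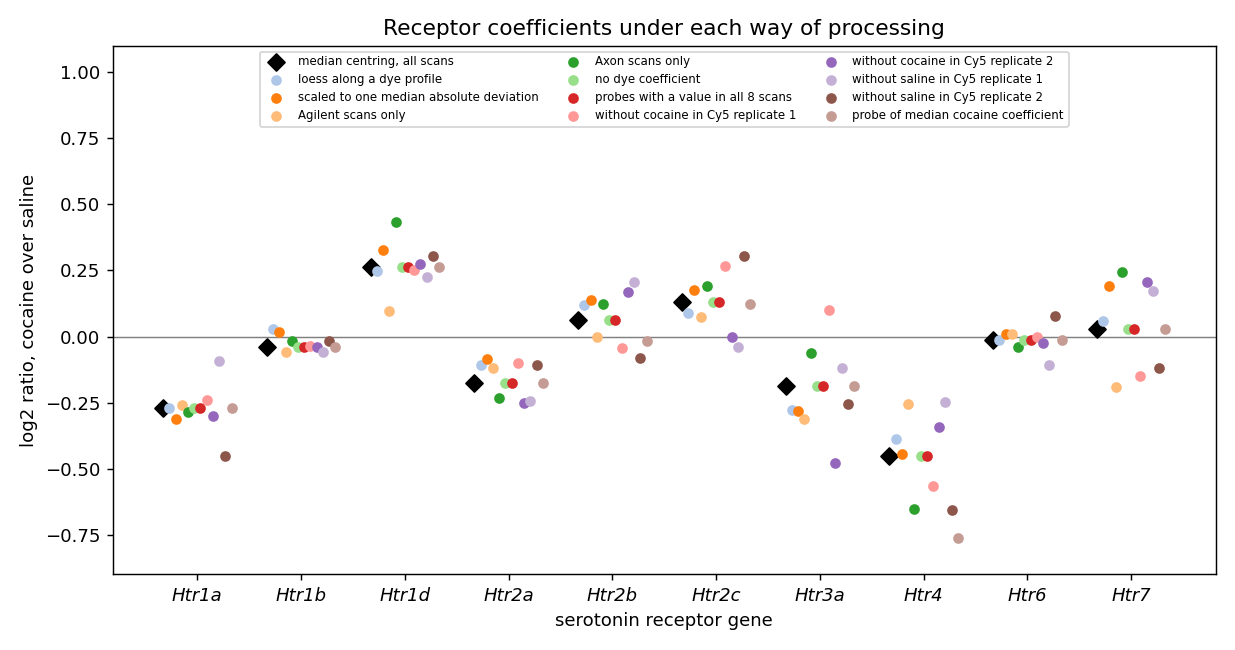
Log2 coefficients of cocaine over saline (vertical axis) for each receptor gene (horizontal axis) under median centring of all scans (black diamonds) and under each of the 11 alternatives (coloured points). Htr4 stays between -0.76 and -0.25 and Htr1d between 0.095 and 0.43, while points of Htr2b, Htr6 and Htr7 fall on both sides of 0.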

How the data were processed

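The authors deposited 1 log2 ratio per row for 8 scans of 44290 rows. The sources used here do not give image analysis, background correction or normalization. Many values sit at log2 of simple fractions, which set the base. RNA aliquots were 75 ng, per the labels' protocols. Values beyond 16 in size (4 to 37 per scan) were stop values and left out. Axon minus Agilent differences correlated across rows at 0.514 and 0.517 between arrays of one orientation and at -0.542 to -0.492 between orientations. Columns were therefore read as already turned to one treatment direction. That it is cocaine over saline was assumed, since the correlations would be the same for saline over cocaine.

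Rows do not follow probe order. With the staggered layout used, the dye responses of 4735 probe pairs of the same accession correlated at 0.521, against -0.012 in row order, and every gene name rests on it. Of the probes 32042 had 1 symbol, 47 several and 12201 none, and 31906 matched the RefSeq gene table by identifier.

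After each scan's median was subtracted, probes of a symbol and the 2 scans of a hybridisation were averaged, and limma 3.58.1 (R 4.3.3) fitted a cocaine and a dye coefficient over all genes with 2 residual degrees of freedom, calling a Benjamini-Hochberg adjusted p below 0.05, two-sided. Errors are limma standard errors. The dye-profile loess used a span of 0.3 and 4 iterations along 0.5 of the difference between the orientations' mean Agilent ratios. The fit was tested on simulated data. The receptors and lists were chosen with earlier results of these data known. All receptors and all measured genes of the 2 lists on other receptors and on serotonin synthesis, transport and breakdown are named. So are the 2 of smallest p in each further list and the 3 genes nearest to Htr4. Neurod6 was added after its value was seen. The interneuron markers are also all named, as are the choroid plexus and ependymal markers below 0. The number of arrays limits the precision.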

Additional observations from a re-analysis of the deposited data

How the results depend on the processing

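The number of serotonin receptors called was 0 under all 11 alternatives. The number of genes called between cocaine and saline was 8, against 0 with dye-profile loess, with scaling to one spread, in Axon scans or without a dye coefficient, 20 in Agilent scans and 97 with 1 probe per symbol. It lay between 66 and 288 when 1 hybridisation was left out. In those fits and with 1 probe per symbol, limma gave every gene the same spread. The receptor median of -0.027 was -0.088 in Agilent scans and between -0.095 and -0.033 without 1 hybridisation. The cause of these shifts was not tested. Of 110 receptor values under alternatives 14 had the opposite sign. That total includes the fit without a dye coefficient and probes valued in all 8 scans, where every receptor kept its main value. It also includes 1 probe per symbol, where the 7 receptors with 1 probe could not move. Htr1b was 0.027 with dye-profile loess and 0.017 with scaling. Htr6 was 0.010 with scaling and 0.011 in Agilent scans, and Htr7 was -0.19 in Agilent scans. Htr2b was -0.017 with 1 probe per symbol. When any 1 hybridisation was left out, ranges across 0 were -0.083 to 0.20 for Htr2b (-0.045 without the first cocaine in Cy5 array), -0.041 to 0.30 for Htr2c (-0.0013 without the second), -0.48 to 0.10 for Htr3a, -0.11 to 0.079 for Htr6 and -0.15 to 0.21 for Htr7 (-0.12 without the second saline in Cy5 array). Each array already holds its cocaine and saline pair, so the fit compares within pairs. No further pairing between arrays was used, since the replicate numbers follow accession order. No intensities were used, so signal over background is unknown, and dim probes could not be filtered. With 2 residual degrees of freedom, the fit leans on the spread shared over genes.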
